A study of Caenorhabditis elegans with 36 samples.

Results

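The mir-35 to mir-41 cluster of *Caenorhabditis elegans* is a run of 7 microRNA (miRNA) hairpins, and both strands of each hairpin were followed here. Members were taken by name, and the cluster was chosen with earlier results of these data known. Of 437 mature miRNA rows in the count table, 14 are a 3p or 5p strand of miR-35 to miR-41. They are 7 3p rows and 7 5p rows. In the WBcel235 annotation the hairpins lie on chromosome II, on the plus strand and in numerical order, within 797 bp. The gaps between neighbours are 2 to 61 bp. All 7 sit inside an intron of Y62F5A.9, a gene on the opposite strand, and overlap none of its annotated exons.

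Small RNA was sequenced from whole worms of 2 strains. Wild type (WT) was N2, and the mutant was HW3527, which carries the tm2321 allele of ebax-1. Synchronized first-stage larvae (L1) of both were plated, kept at 25 °C without treatment and collected every hour from 25 h to 42 h, a span that runs from larvae into adults. Each strain and hour is 1 library, 36 in all, with no replicate of any hour. EBAX-1 is the worm counterpart of ZSWIM8, a substrate receptor of a Cullin-RING ubiquitin ligase known for degrading Argonaute proteins, and with them the miRNA they hold, when an RNA target directs it. Its own mRNA is not in a miRNA table, so the genotype was not checked here.

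A miRNA hairpin is cut into a short duplex, and an Argonaute protein keeps 1 strand, the guide. The other strand, the passenger, is released and usually decays quickly. In the mir-35 family the 3p strand is the guide. The 3p strands share their seed, the stretch near the 5′ end that pairs with targets, so they are expected to recognise overlapping sets of mRNAs. The family is abundant in oocytes and embryos, is needed for embryonic development, and is known to be cleared as embryos become larvae. Because passenger strands turn over fast, their level is often read alongside the guide as a sign of how much hairpin has recently been processed. In whole-animal samples more cells that make a miRNA and more of it per cell cannot be told apart.

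Libraries held 2832088 to 8060155 counts. Levels are given as CPM, a row's share of all counts in its library scaled to a common total. Marker miRNAs of muscle (miR-1-3p), neurons (lsy-6-3p, miR-124-3p), intestine (miR-60-3p) and developmental timing (lin-4-5p, let-7-5p) were read in every library. Averaged over aligned time lsy-6-3p was lower in the mutant by edgeR, at -0.76 ± 0.13, and so was miR-60-3p, at -0.48 ± 0.09, and the other 4 were not called. From 25 to 27 h to 40 to 42 h lsy-6-3p fell by 1.43 and miR-124-3p by 0.86 in WT on the log2 scale, and let-7-5p rose by 0.80 in the mutant. None of the 6 was called at the step into adulthood in either strain, and their part in the results was not tested. TMM scaling factors, which correct a library's total for its composition, ran from 1.09 to 1.22 in WT at 25 to 35 h and from 0.924 to 0.969 in WT at 36 to 42 h. They ran from 0.84 to 1.07 in the mutant. The part of this split in the results was not tested beyond the use of library totals as an alternative.

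Of the 14 rows, 12 were abundant enough to test. These are the 3p strands of miR-35 to miR-40 and the 5p strands of miR-35, miR-36, miR-37, miR-39, miR-40 and miR-41. miR-38-5p, the passenger of miR-38, had 17 reads in all WT libraries together and 20 in all mutant libraries, and was at 0 in 10 of 18 and 8 of 18. miR-41-3p had 111 reads in WT, 54 of them at 42 h, and 180 in the mutant, with at most 46 in a library. The miR-41 hairpin was therefore seen almost only through its 5p strand, the reverse of the other members in this table. Reads were counted only where they start within 3 bp of the annotated 5′ end, so a low count in a row need not mean a low level of that strand. Mature strands of this family are very similar to each other, so reads that fit more than 1 member may have been shared in the counting, and differences between members carry that limit.

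The 3p guides stood at very different levels. In WT, miR-36-3p averaged 2165 CPM over the 18 hours and miR-39-3p 2039 CPM. miR-35-3p and miR-37-3p followed at 1001 and 984 CPM and did not differ beyond the spread between hours. miR-40-3p averaged 305 CPM and miR-38-3p 212 CPM, but their order changed with time. miR-38-3p was the higher at each hour from 25 to 33 h, and miR-40-3p from 34 h on. miR-38-3p averaged 182 CPM at 25 to 27 h and 481 CPM at 40 to 42 h, and miR-40-3p 133 and 977 CPM. The mutant had another order: miR-39-3p led at 4393 CPM, before miR-36-3p at 3600, miR-35-3p at 2497, miR-37-3p at 1888, miR-38-3p at 907 and miR-40-3p at 678 CPM. Each of these neighbours differed by more than the spread of their ratio over the 18 hours.

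The 5p strands were far less abundant. In WT, miR-39-5p averaged 138 CPM and miR-41-5p 126 CPM, which did not differ beyond their spread. miR-37-5p at 60.8 CPM and miR-36-5p at 38.3 CPM were not separable over all hours, though they averaged 193.7 and 103.5 CPM at 40 to 42 h. miR-35-5p and miR-40-5p were lowest at 16.2 and 9.02 CPM. In the mutant miR-41-5p averaged 89.7, miR-39-5p 84.6, miR-37-5p 48.6, miR-36-5p 24.7, miR-35-5p 9.36 and miR-40-5p 5.18 CPM. Of these, only miR-41-5p and miR-39-5p were not separable. The 5p order thus matched between strains except within pairs that were not separable in WT.

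WT guides went through a low point at 35 h and then climbed to the end of the series. miR-39-3p had its lowest WT level, 288.5 CPM, at 35 h, a median of 688 CPM and its highest level, 12090 CPM, at 42 h. miR-36-3p ran from 403 CPM at 35 h, with a median of 990 CPM, to 10020 CPM at 42 h. miR-38-3p ran from 44.5 CPM at 35 h, with a median of 177 CPM, to 650 CPM at 42 h. All 6 abundant 3p strands had their lowest WT value at 35 h and their highest at 42 h. The lowest, median and highest values were 147, 473 and 4457 CPM for miR-35-3p. They were 147, 458 and 4292 CPM for miR-37-3p, and 61.0, 160 and 1319 CPM for miR-40-3p. Summed over the cluster, WT 3p reads were 1092 CPM at 35 h and 32850 CPM at 42 h, when they made up 3.285% of the library.

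Mutant guides started high and stayed high. miR-39-3p was lowest at 39 h, with 2645 CPM, had a median of 4180 CPM and reached 7507 CPM at 42 h. miR-35-3p ranged from 1657 CPM at 37 h through a median of 2410 CPM to 4247 CPM at 42 h. miR-38-3p ranged from 607 CPM at 38 h through a median of 871 CPM to 1294 CPM, which it had at 27 h rather than in the adult. The ranges and medians were 2417 to 6934 and 3375 CPM for miR-36-3p, 1284 to 3823 and 1728 CPM for miR-37-3p, and 460 to 1219 and 631 CPM for miR-40-3p. The summed mutant guides stood at 18000 CPM at 25 h, 9570 CPM at 38 h and 24620 CPM at 42 h. At 42 h by the clock the WT sum was above the mutant sum, while the WT sum at 39 h, the hour matched to mutant 42 h below, was 11540 CPM.

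**Figure D1:**
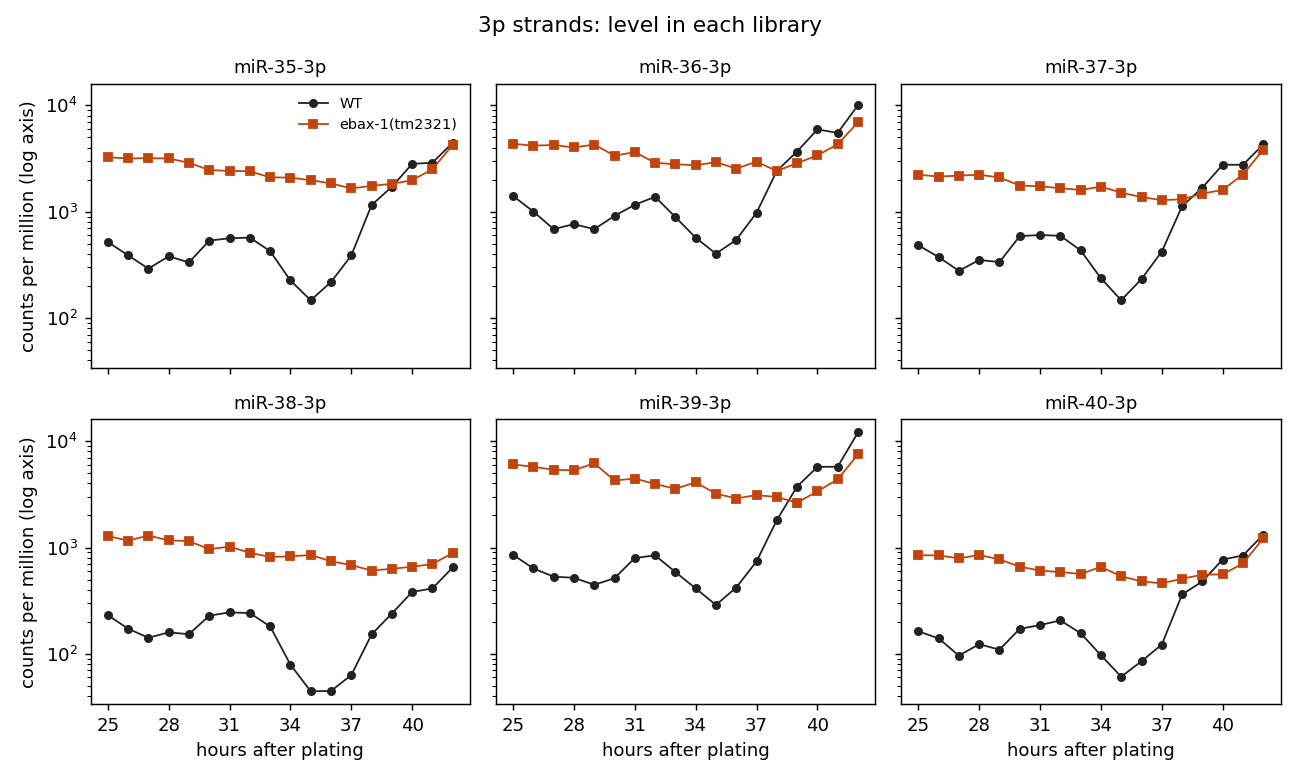
Level of each abundant 3p strand in every library, in CPM on a log axis, against hours after plating; black circles are WT and orange squares ebax-1(tm2321), 1 library per point. WT dips at 35 h, with miR-39-3p at 288.5 CPM, and climbs to 12090 CPM at 42 h. The mutant starts high and rises late, for miR-39-3p from 2645 CPM at 39 h to 3370 at 40 h and 7507 at 42 h. Mutant miR-38-3p ends below its 27 h level.

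The passengers had a different course, with similar levels in both strains. miR-39-5p had a lowest value of 15.2 CPM, a median of 40.3 CPM and a highest value of 653 CPM in WT. In the mutant the corresponding values were 18.5, 47.4 and 392 CPM. miR-41-5p gave 16.9, 47.2 and 481 CPM in WT and 19.3, 41.0 and 477 CPM in the mutant. All 6 abundant 5p strands had their highest level at 42 h in both strains, and the ranges of the strains overlapped for each of them. miR-37-5p ran from 6.51 to 204 CPM in WT and from 11.9 to 231 CPM in the mutant, and miR-36-5p from 8.78 to 134 and from 6.54 to 91.7 CPM. miR-35-5p ran from 2.21 to 73.5 CPM in WT and from 2.97 to 39.5 CPM in the mutant. miR-40-5p ran from 0.631 to 42.2 and from 0.879 to 23.7 CPM, and its lowest WT value rested on 2 reads.

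A smaller 5p peak came before the adult rise. Summed WT 5p reads were 65.0 CPM at 29 h, 173.6 at 30 h, 158.7 at 31 h and 65.6 at 33 h. In the mutant the sum went from 211.3 CPM at 25 h to 67.3 at 30 h, and then to 133.7 at 32 h and 133.4 at 33 h. miR-41-5p had 21.4 CPM at 29 h and 64.3 CPM at 30 h in WT, and held 37.0% of the summed 5p reads at 30 h. Each of these hours is a single library, and the peak was not tested.

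**Figure D2:**
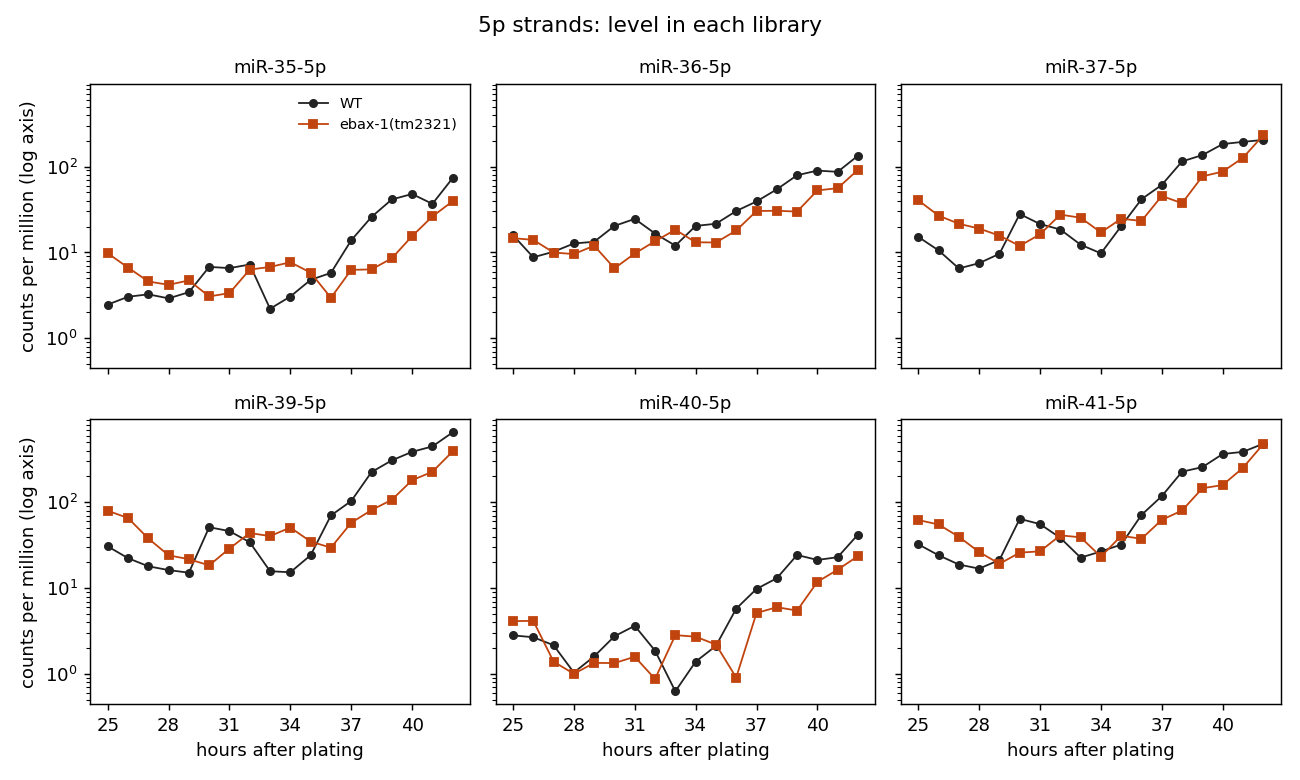
Level of each abundant 5p strand in every library, in CPM on a log axis, against hours after plating; black circles are WT and orange squares ebax-1(tm2321), 1 library per point. Both strains share a low level in larvae and a late rise, and miR-41-5p ends at 481 CPM in WT and 477 CPM in the mutant.

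The hour at which a strand rose above its larval median separated passengers from guides. Onset was taken as the first hour from which a level stayed at least 1 log2 unit above its own median of 25 to 33 h (WT) or 28 to 36 h (mutant), and carries no test. In WT, 5 of 6 5p strands had their onset at 36 h and miR-35-5p at 37 h. The WT 3p strands followed at 38 h, except miR-38-3p at 40 h. In each of the 5 hairpins with both strands, the WT passenger rose above its baseline 1 or 2 hours before the guide. The WT guides dipped below their baseline at 35 h and had to regain it first. From 33 h to 35 h the summed WT 3p reads fell from 2678 to 1092 CPM, while the 5p reads rose from 65.6 to 105 CPM. By 38 h both had risen, to 7028 and 661 CPM. The order of the strands counted from the dip was not tested. In the mutant, 4 5p strands had their onset at 37 h, miR-39-5p at 38 h and miR-35-5p at 40 h. Of the mutant 3p strands, miR-36-3p, miR-37-3p and miR-40-3p reached it at 42 h, the last hour sampled, and the other 3 did not reach it. At a threshold of 0.5 log2 units 5 of the 6 reached it, and at 2 log2 units 0 of 6. Across the hours of their baseline the summed mutant guides fell from 16750 CPM at 28 h to 9877 CPM at 36 h.

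The study took the mutant to develop about 3 h behind WT, and mutant hours are compared with WT 3 h earlier below, as WT 25 to 39 h with mutant 28 to 42 h. With WT values of 25 to 36 h laid over the mutant and each series centred, the shift with the smallest mean squared difference was 3 h for the summed 3p strands and 2 h for the summed 5p strands. For single members it was 2 to 4 h among 3p strands and 2 to 3 h among 5p strands. The minimum of the summed 3p strands was shallow, at 0.225 for 3 h against 0.245 for 0 h, so the guides hardly resolve a shift. The summed 5p strands had 0.177 at 2 h, 0.416 at 3 h and 0.713 at 0 h.

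Each of the 6 tested 3p guides was higher in the mutant at all 15 aligned hours. At WT 25 to 36 h, miR-35-3p was at most 571 CPM in WT and at least 1657 CPM in the aligned mutant libraries, and none of the 6 guides overlapped between strains over these 12 hours, where 4.56% of the 241 tested miRNAs were higher in the mutant without overlap. miR-38-3p was the member that did not overlap over all 15 aligned hours, with a WT maximum of 245 CPM and a mutant minimum of 607 CPM. Over these hours 2.07% of tested miRNAs were higher in the mutant without overlap. Averaged over aligned time by edgeR's quasi-likelihood test, the log2 differences were 2.76 ± 0.13 (SE) for miR-38-3p, 2.74 ± 0.15 for miR-39-3p and 2.61 ± 0.14 for miR-35-3p. They were 2.28 ± 0.12 for miR-40-3p, 2.21 ± 0.13 for miR-37-3p and 1.97 ± 0.11 for miR-36-3p, and the highest Benjamini-Hochberg adjusted p of the 6 was 6.19e-15.

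The passengers differed much less between strains. The mean log2 difference in the same edgeR fit was 0.85 ± 0.15 for miR-37-5p (adjusted p = 1.58e-05) and 0.67 ± 0.17 for miR-39-5p (adjusted p = 0.00115). It was 0.52 ± 0.16 for miR-41-5p (adjusted p = 0.00755) and 0.44 ± 0.13 for miR-35-5p (adjusted p = 0.0049). miR-36-5p, at 0.19 ± 0.11 (adjusted p = 0.146), and miR-40-5p, at 0.28 ± 0.21 (adjusted p = 0.243), were not called by edgeR. With both strands counted, 10 of 12 members were called higher in the mutant at an adjusted p under 0.01, where 24.1% of 241 tested miRNAs were. The median log2 difference was 2.45 over the 6 3p strands, 0.48 over the 6 5p strands and -0.03 over all tested miRNAs. The 5p calls depend on the alignment: without any shift none of the 5p strands was called, and 4 of them had a negative difference. With library totals, where the median of all tested miRNAs moved from -0.03 to -0.23, miR-37-5p was the 5p strand still called, and with a shift of 2 h it was so as well. Single libraries decided miR-41-5p, which was not called, at 0.47 to 0.55, when WT 29 h, WT 33 h or mutant 32, 38 or 42 h was left out.

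The size of the guide difference changed over aligned time. All 6 3p strands and no 5p strand passed edgeR's test of strain by time, with adjusted p from 4.11e-07 for miR-38-3p to 0.000117 for miR-40-3p, where 7.47% of 241 tested miRNAs passed. With a spline of 4 components 3 members passed. With no shift of the mutant 10 did and with a shift of 4 h 8 did, so 5p strands were then among them. The share of all tested miRNAs that passed under these alternatives is not given here, so the counts lack their background. To see when, libraries were grouped into windows of 3 hours, and each mutant window was set against the WT window 3 h earlier. The 3 hours of a window stand in for replicates, so the p-values of all window comparisons measure the scatter between neighbouring hours.

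All 6 guides were called higher in the mutant in each of the 5 aligned windows by edgeR, and no 5p strand was called in any. The share of all 244 tested miRNAs called higher was 7.38% at WT 25 to 27 h, 9.02% at 28 to 30 h, 12.3% at 31 to 33 h, 12.3% at 34 to 36 h and 8.61% at 37 to 39 h. The guides' log2 differences ran from 2.20 to 3.25 in the first of these windows and from 1.58 to 2.51 at WT 31 to 33 h. At WT 34 to 36 h they ran from 2.71 ± 0.33 for miR-36-3p to 3.80 ± 0.32 for miR-38-3p. The difference was largest in this window for 5 of the 6 guides. The exception, miR-39-3p, had 3.29 ± 0.38 at 28 to 30 h and 3.22 ± 0.38 at 34 to 36 h, less than 1 SE apart. At WT 37 to 39 h they were 1.16 ± 0.32 for miR-36-3p to 1.54 ± 0.33 for miR-35-3p, apart from miR-38-3p at 2.42 ± 0.30. The difference was smallest in this window for 5 of the 6 guides, while that of miR-38-3p was smallest at 31 to 33 h, at 2.17 ± 0.30. What follows concerns WT 37 to 39 h. With library totals or with no filter the difference of miR-36-3p in this window was 1.05 and not called. In that last window miR-38-3p alone was called once the mutant 42 h library was left out, and 3 guides once WT 37 h was. The 5p differences at WT 34 to 36 h ran from 0.58 to 1.38, with adjusted p by edgeR from 0.0271 to 0.167. Without WT 36 h, those of miR-37-5p, miR-39-5p and miR-41-5p were 2.16, 2.39 and 2.05 and were called.

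**Figure D3:**
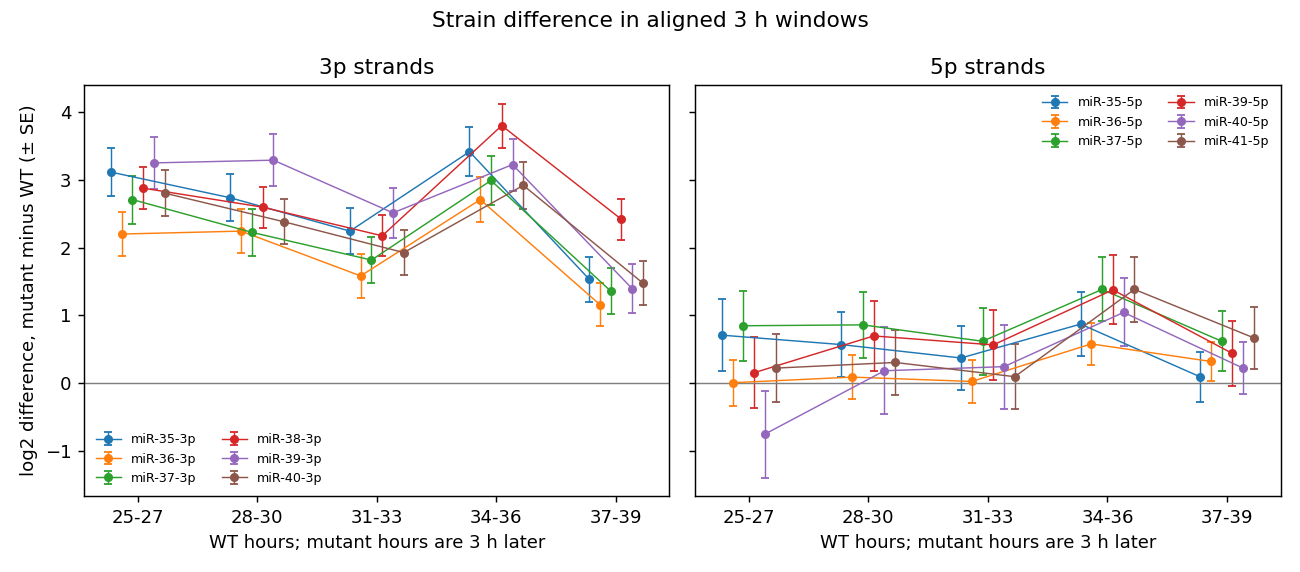
Log2 difference between the mutant and WT in 5 aligned windows of 3 hours, with 3p strands on the left and 5p strands on the right; the x axis gives WT hours, mutant hours are 3 h later, points are edgeR estimates and bars their standard errors. The 3p strands lie between 1.16 and 3.80, with the highest value at WT 34 to 36 h, and 5p strands lie between -0.75 and 1.38.

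Both strands changed over time within each strain. In fits of each strain on its own, where miR-40-5p fell below the count filter, 11 of 11 members passed edgeR's test over time in WT and 11 of 11 in the mutant. The background was high, 72.5% of tested miRNAs in WT and 59% in the mutant, so passing says little about the members.

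In WT, guides first dropped before they climbed. From 31 to 33 h to 34 to 36 h, miR-38-3p fell by 1.88 ± 0.30 on the log2 scale (edgeR adjusted p = 9.55e-05), and miR-35-3p and miR-37-3p each fell by 1.27. These 3 of 12 members were called lower, where 10.7% of 244 tested miRNAs were. The estimates for miR-36-3p, miR-40-3p and miR-39-3p were -1.04, -1.04 and -0.85, and no 5p strand was called. miR-38-3p alone was called without any 1 of the WT libraries of 31, 32, 34, 35 or 36 h, and 5 guides were without WT 37 h.

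All 12 members then rose at the WT step into adulthood, from 34 to 36 h to 37 to 39 h. They were 12 of the 15 miRNAs called higher by edgeR, which are 6.15% of the 244 tested. The other 3 were miR-71-5p, miR-2209a-3p and miR-61-5p. miR-39-3p had 412, 288.5 and 421 CPM in the 3 hours before and 740, 1809 and 3741 CPM in the 3 hours after, a log2 change of 2.62 ± 0.37 (adjusted p = 7.84e-06). miR-38-3p, with 79.2, 44.5 and 44.8 CPM before and 63.2, 152 and 239.5 CPM after, had the smallest guide change, 1.59 ± 0.30 (adjusted p = 0.000465), and its windows overlapped. Among passengers, miR-35-5p had 3.07, 4.80 and 5.78 CPM before and 13.9, 25.9 and 41.4 CPM after, a change of 2.70 ± 0.44 (adjusted p = 5.9e-05). miR-36-5p had the smallest passenger change, 1.38 ± 0.31 (adjusted p = 0.00181). The remaining members changed by 2.13 to 2.62. Without WT 34 h or without WT 39 h, 7 of the 12 were called.

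The guides kept climbing in WT at the next step, and the passengers less clearly. From 37 to 39 h to 40 to 42 h the 6 guides rose by 1.61 to 1.92 on the log2 scale, with edgeR adjusted p from 0.00114 to 0.0022. They were the only miRNAs called higher, 2.46% of the 244 tested. The 5p estimates were 0.85 to 1.23, with adjusted p from 0.106 to 0.266 by edgeR. The guide calls rest on single libraries: none was called without WT 42 h, and 2 were without WT 37 h.

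The mutant passengers had positive estimates at the matching step, from 37 to 39 h to 40 to 42 h, but did not pass the threshold. No miRNA was called higher by edgeR, 0% of 244, while 26 had an unadjusted p under 0.05. limma also called no member and DESeq2 called 3, all 5p strands. miR-35-5p had 6.27, 6.35 and 8.55 CPM before and 15.5, 26.3 and 39.5 CPM after, a log2 change of 1.93 ± 0.41 (edgeR adjusted p = 0.0134). The other 5p estimates were 1.13 to 1.68, with adjusted p from 0.0209 to 0.0514. Counted from 36 to 38 h in place of 37 to 39 h, all 6 5p strands were called, at 1.35 to 2.36. The share of all tested miRNAs called with DESeq2 or with these other windows is not given here, so both counts lack their background. The 3p estimates were 0.21 to 0.90, with adjusted p from 0.117 to 0.683.

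The difference between strains in this step was itself tested. Guide steps in the mutant were smaller than in WT by 1.38 ± 0.41 (miR-38-3p) to 1.88 ± 0.46 (miR-35-3p) on the log2 scale. None was called by edgeR, with adjusted p from 0.0924 to 0.141, and neither limma nor DESeq2 called any. Over all 244 miRNAs 0% were called lower, 12 had an unadjusted p under 0.05 and these 12 include the 6 guides. Without WT 37 h, the 6 guides were called, at -1.75 to -2.28. The passengers' step differed by -0.94 to -0.26, with adjusted p from 0.862 to 0.988 by edgeR.

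Across the whole series the strands parted in the mutant. From 25 to 27 h to 40 to 42 h all 12 members rose in WT, where 27.9% of 244 tested miRNAs did. The WT 3p changes ran from 1.73 ± 0.30 for miR-38-3p to 3.87 ± 0.39 for miR-39-3p, and the 5p changes from 3.51 ± 0.33 for miR-36-5p to 4.73 ± 0.57 for miR-39-5p, with edgeR adjusted p of at most 1e-05. In the mutant the 6 5p strands rose, by 2.16 ± 0.41 for miR-35-5p to 2.72 ± 0.49 for miR-41-5p, where 26.2% of all tested miRNAs were called higher. The 6 mutant guides were not called by edgeR, at -0.52 ± 0.29 for miR-38-3p to 0.44 ± 0.33 for miR-37-3p, with adjusted p from 0.104 to 0.922. These clock hours are not aligned, so the mutant at 42 h matches WT at 39 h.

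**Figure D4:**
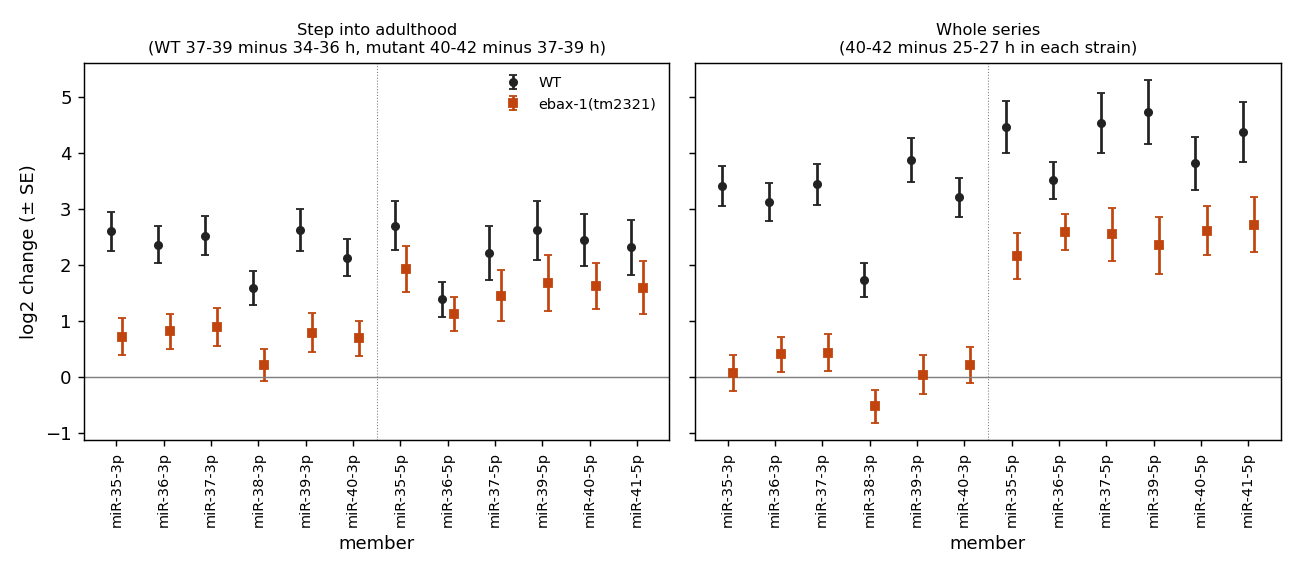
Log2 change of each member at the step into adulthood (left) and from 25 to 27 h to 40 to 42 h (right); black circles are WT, orange squares ebax-1(tm2321), points are edgeR estimates and bars their standard errors, with 3p strands left of the dotted line. On the right, the 5p strands rise in both strains, by 3.51 to 4.73 in WT and 2.16 to 2.72 in the mutant, and the mutant 3p strands lie between -0.52 and 0.44.

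The balance of the strands put these courses into 1 number. In WT the summed 3p reads were 40.8 times the 5p reads at 33 h, 6.87 times at 36 h and 20.7 times at 42 h. In the mutant they were 231.8 times the 5p reads at 29 h, 87.8 times at 36 h and 19.6 times at 42 h. The passengers made up 2.39% of cluster reads in WT at 33 h and 12.7% at 36 h, and 0.430% in the mutant at 29 h and 4.85% at 42 h. By the clock the strains were thus close at 42 h. Against WT at 39 h, with 13.6 times as many 3p as 5p reads, the mutant at 42 h was still higher.

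The 3p to 5p ratio was tested per hairpin with limma, on log2 of (3p CPM + 1) over (5p CPM + 1) with TMM scaling. Of the cluster, miR-35, miR-36, miR-37, miR-39 and miR-40 had both strands, among 86 such hairpins. miR-36 had its lowest WT value, 4.12, at 36 h, a median of 5.67 and its highest, 6.65, at 26 h. In the mutant its values were 5.98, 7.62 and 8.82. Averaged over aligned time the mutant ratio was higher by 2.18 ± 0.16 for miR-35, 2.09 ± 0.21 for miR-40, 2.01 ± 0.19 for miR-39, 1.80 ± 0.15 for miR-36 and 1.35 ± 0.14 for miR-37. All 5 were called, with limma adjusted p of at most 4.34e-09, where 17.4% of the 86 hairpins were called higher. The median of all 86 was 0.02.

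By window, 5 of 5 hairpins had a higher ratio in the mutant at WT 25 to 27 h and 5 at 28 to 30 h, where 11.6% and 8.14% of hairpins did by limma. The call of miR-37 at 28 to 30 h, at 1.27 ± 0.35 (limma adjusted p = 0.00947), lay at the threshold and was lost with library totals, with no filter, with a pseudocount of 0.5 and in 20 of 36 fits that left out a library. The counts were 4 at 31 to 33 h (9.3%), 5 at 34 to 36 h (11.6%) and 2, miR-35 and miR-40, at 37 to 39 h (5.81%). The differences ran from 1.94 to 3.29 in the first window and from 0.90 to 1.56 in the last. Fewer hairpins were called at 34 to 36 h, 3 of 5, without WT 35 h, WT 36 h or mutant 38 h. In the last window 1 was called without WT 37 h or without mutant 40, 41 or 42 h.

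Within WT the ratio dropped just before the adult rise. From 31 to 33 h to 34 to 36 h it fell by 1.28 ± 0.32 for miR-35, 1.62 ± 0.27 for miR-36, 1.66 ± 0.35 for miR-37 and 1.54 ± 0.35 for miR-40, with limma adjusted p from 7.37e-05 to 0.0029. miR-39, at -1.01 ± 0.39 (limma adjusted p = 0.0587), was not called. These 4 of 5 compare with 9.3% of 86 hairpins called lower. Without WT 36 h 1 was called, and without WT 33 h 2. From 25 to 27 h to 40 to 42 h none of the 5 WT ratios was called lower, where 8.14% of hairpins were (22 of 86 at an unadjusted p under 0.05), with estimates from -0.98 to -0.07 and limma adjusted p from 0.0417 to 0.877. Without WT 34 h, miR-37 was. With a pseudocount of 8 CPM the direction turned for miR-35, miR-36 and miR-40, at 0.82, 0.40 and 1.22, and miR-35 and miR-40 were called higher. A drop of the same kind was tested in the mutant 3 h later, from 34 to 36 h to 37 to 39 h. There the ratio fell by 1.01 ± 0.27 for miR-36, 1.38 ± 0.35 for miR-37 and 1.35 ± 0.35 for miR-40, with limma adjusted p from 0.00771 to 0.00786, where 8.14% of hairpins were called lower. miR-39, at -1.28 ± 0.39, and miR-35, at -0.55 ± 0.32, were not called (limma adjusted p = 0.0177 and 0.24). The mutant calls lie close to the threshold: none was left without any 1 of the mutant libraries of 34, 35, 38 or 39 h. In the mutant all 5 fell over the whole series, by 1.97 ± 0.32 for miR-35 to 2.34 ± 0.39 for miR-39, with limma adjusted p of at most 1.53e-05, where 12.8% of hairpins did.

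**Figure D5:**
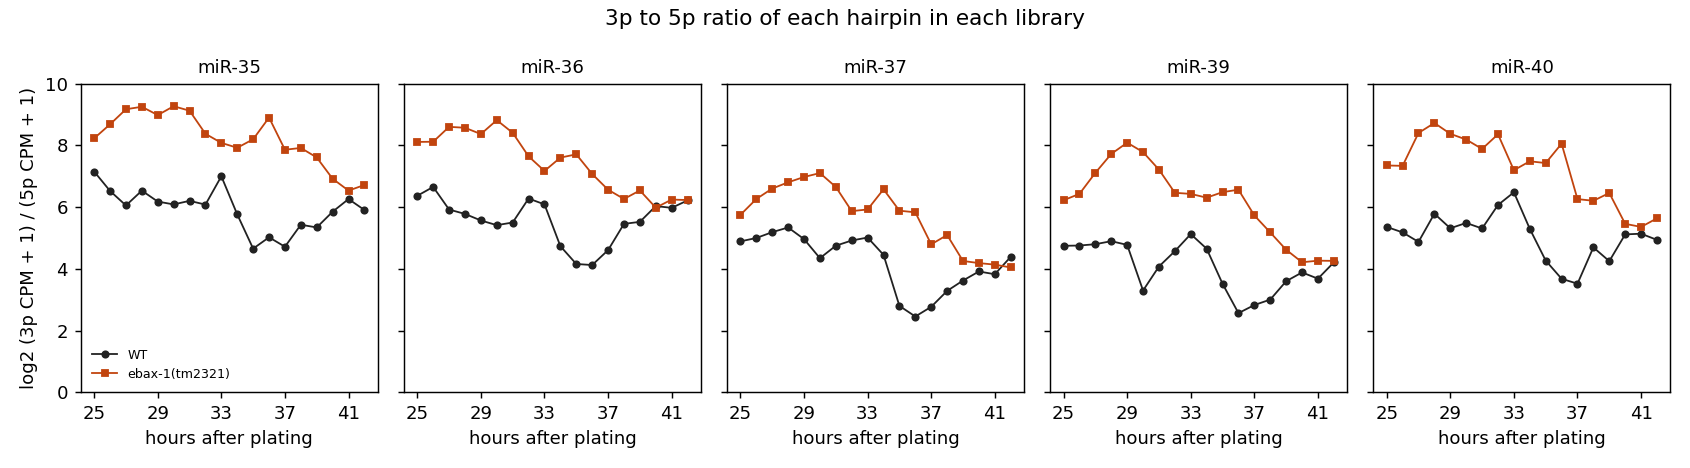
Log2 ratio of 3p to 5p level (TMM-scaled CPM + 1) of the 5 hairpins with both strands measured, in every library, against hours after plating; black circles are WT and orange squares ebax-1(tm2321). The mutant lies above WT through the larval hours, WT has its low point at 35 to 37 h, and the strains come closer at the same clock hours of 40 to 42 h. At 42 h WT and mutant stood at 6.22 and 6.23 for miR-36, the closest pair, and at 4.21 and 4.26 for miR-39. They were further apart for miR-35 (5.9 and 6.7) and miR-40 (4.94 and 5.64), and miR-37 was lower in the mutant (4.39 and 4.04).

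The shares of several guides shifted over the series, and that of miR-38-3p fell in both strains. It made up 6.56% ± 0.38 (SD over 3 hours) of the cluster's 3p reads in WT at 25 to 27 h and 2.11% ± 0.15 at 40 to 42 h. In the mutant its share was 7.15% ± 0.42 and 4.68% ± 1.05 in the same windows. miR-39-3p went the other way in WT, from 24.3% ± 1.66 to 33.2% ± 3.15, and stood at 32.8% ± 1.13 and 29.7% ± 0.70 in the mutant. miR-36-3p fell in WT from 36.4% ± 2.33 to 31.05% ± 1.05 and rose in the mutant from 24.4% ± 0.37 to 28.8% ± 0.60. The hours of the WT windows did not overlap for any of these strands, and they did for miR-35-3p, miR-37-3p and miR-40-3p. miR-35-3p held 14.3% ± 0.11 and 14.9% ± 1.22 in WT. No passenger of miR-38 was measurable, so its balance of strands is not known here.

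The hairpins of miR-42 to miR-45 lie on the same chromosome, at least 343 kb away, and none of their tested strands was called higher at the WT step into adulthood. The passengers miR-42-5p and miR-43-5p had positive estimates there, 1.03 ± 0.42 and 0.87 ± 0.44, with edgeR adjusted p of 0.142 and 0.218. miR-42-3p, which has the family seed, had a lowest WT value of 3.16 CPM at 41 h, a median of 26.1 CPM and a highest value of 90.6 CPM at 32 h. At the WT step into adulthood it fell by 1.68 ± 0.37 on the log2 scale (edgeR adjusted p = 0.00169), opposite to all 12 members, and across the WT series it fell by 2.10 ± 0.35. In the mutant it ranged from 58.1 to 214 CPM, and at WT 37 to 39 h its strain difference was 4.07 ± 0.36 (edgeR adjusted p = 2.88e-10). miR-43-3p, its neighbour, fell by 1.70 ± 0.24 across the WT series, and miR-44-3p and miR-45-3p each fell by 1.08. The strain difference of the cluster's guides was shared by miR-42-3p and miR-43-3p. Averaged over aligned time they were higher in the mutant by 2.38 ± 0.21 and 2.47 ± 0.13 (edgeR adjusted p = 9.9e-11 and 2.26e-15). Their 5p strands differed by 0.51 and 0.34, and miR-44-3p and miR-45-3p by 0.49 each. The mutant 3p to 5p ratio was higher by 1.93 ± 0.22 for miR-42 and 2.13 ± 0.17 for miR-43, both called by limma. The passenger miR-42-5p fell by 2.38 ± 0.40 across the mutant series, where all 6 cluster passengers rose.

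The miRNAs whose hourly course was most like the cluster's were named by Pearson's r of log2(CPM + 1) over the 18 libraries of a strain, among 232 others, as a description. For the summed WT guides these were miR-1829b-5p (r = 0.906, Spearman's rho 0.457), miR-61-5p (r = 0.848, rho 0.851) and miR-1829c-5p (r = 0.84, rho 0.577). For the summed WT passengers they were miR-1829c-5p (r = 0.965), miR-34-5p (r = 0.944) and miR-1829b-3p (r = 0.928). In the mutant, guides had lower values, led by miR-74-5p (r = 0.689), miR-61-5p (0.683) and miR-45-5p (0.636). Without the 2 libraries farthest from the median of the summed guides, these were 0.746, 0.382 and 0.699. Mutant passengers were led by miR-51-3p (r = 0.868), miR-1829b-3p (0.844) and miR-4811-3p (0.81), the last at a mean of only 1.27 CPM. The median r between the summed guides and the single passengers of the cluster was 0.889 in WT and 0.316 in the mutant. These correlations share the late rise and the depth of each library.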

How the data were processed

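Per the study's methods, the authors aligned reads of the CleanTag small RNA libraries with Bowtie through QuasR to ce10, allowing up to 100 hits, and counted those on the same strand that start within 3 bp of a mature miRNA's annotated 5′ end. The sources used here do not give tool versions. The deposited counts are raw. The deposited log2 values are log2 of counts scaled to the mean library total plus 8, which a recomputation met within 5e-04, and they served only for the onset alternative.

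Counts were tested in R 4.3.3 with edgeR 4.0.16 (quasi-likelihood, TMM, filterByExpr with a minimum count of 10), over all miRNAs that passed, with Benjamini-Hochberg adjustment and a threshold of 0.01. Strain fits used 30 libraries, the mutant moved by 3 h, and a B-spline of 6 components. Window fits used all 36 libraries as 12 cells of 3 hours. limma 3.58.1 tested the ratio with a pseudocount of 1 CPM, and limma and DESeq2 1.42.0 served as alternatives. Further alternatives were library totals, DESeq2 size factors, no filter, other shifts, splines, windows and pseudocounts, and leaving out each library, which for the ratio was added after seeing the data. All fits were run on simulated data, but only the mean strain difference, the WT step and the difference of steps were compared with planted values. The simulated data held no course over time apart from a step shared by both strains. A periodic term over the last larval stage, added after seeing the data, and an exact permutation test of each guide's share between the first and last windows were also run and are not reported. The study itself fitted limma. Named miRNAs are all members, the measured relatives miR-42 to miR-45, and the 3 miRNAs most correlated with each summed strand. The members and lists were chosen with earlier results of these data known. Libraries of 1 strain are separate collections of 1 time course, so p-values measure scatter around a smooth course or within 3 hours. No sequences were analysed here.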

Additional observations from a re-analysis of the deposited data

Results flagged for a closer look

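For 6 members the difference between strains was not the same at all aligned hours, by the edgeR test of strain by time. The adjusted p was 4.11e-07 for miR-38-3p, 8.16e-07 for miR-35-3p, 9.02e-07 for miR-39-3p, 1.2e-06 for miR-36-3p, 5.59e-06 for miR-37-3p and 0.000117 for miR-40-3p. All are 3p guides, and their log2 differences were 2.71 to 3.80 at WT 34 to 36 h and 1.16 to 2.42 at WT 37 to 39 h, each lower in the second of these windows. TMM factors moved between the same hours in WT, from 1.09 to 1.22 before 36 h to 0.924 to 0.969 from 36 h on. With library totals the same 6 passed. With a spline of 4 components 3 members passed, and with no shift of the mutant 10 did, both without a share of all tested miRNAs beside them. Whether the course of the difference reflects the timing of the strains was not tested.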

How the results depend on the processing

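Each strain has 1 library per hour, and the labels carry no replicate numbers. The libraries were paired by aligned hour, as a factor in place of the spline, and 10 members were again called higher on average. Counts of members in this section come without the share of all tested miRNAs called under the same alternative.

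With no shift of the mutant, 6 members were called higher on average and 10 by strain and time, and miR-35-5p, miR-36-5p, miR-40-5p and miR-41-5p turned to -0.24, -0.35, -0.49 and -0.06. A 2 h shift put miR-36-5p at -0.03 and miR-40-5p at -0.05. The calls of miR-35-5p, miR-39-5p and miR-41-5p were lost with that shift (0.12, 0.40 and 0.26) and with library totals (0.26, 0.49 and 0.33). A spline of 4 components left 3 strain by time calls and ended the mean calls of miR-35-5p (0.45) and miR-41-5p (0.48). The causes were not tested.

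With library totals, which moved the median of all miRNAs from -0.03 to -0.23 on average and from -0.13 to -0.46 over the WT series, uncalled 5p differences turned negative. At WT 25 to 27 h these were miR-36-5p (-0.27), miR-39-5p (-0.13) and miR-41-5p (-0.06). At 28 to 30 h they were miR-36-5p (-0.17) and miR-40-5p (-0.07), at 31 to 33 h miR-36-5p (-0.29), miR-40-5p (-0.06) and miR-41-5p (-0.22), and at 37 to 39 h miR-35-5p (-0.02; -0.01 with no filter). miR-36-5p at 25 to 27 h was -0.01 with DESeq2 size factors and -0.02 with limma and DESeq2. Over the mutant series, miR-35-3p was -0.14 and miR-39-3p -0.17 with library totals, and miR-39-3p -0.04 with limma. From WT 31 to 33 h to 34 to 36 h, miR-35-5p was 0.02 with no filter and 0.01 with limma.

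The WT drop before the adult rise counted 5 members with library totals and 1 with no filter. The mutant step counted 1 with library totals, 3 with DESeq2 and 6 with the other windows, in which the WT step of miR-38-3p, at 0.82, was not called. For the ratio, WT 37 to 39 h counted 1 with a pseudocount of 0.5, the mutant drop 0 with no filter and 1 with a pseudocount of 8, and the whole WT series 1 with no filter. With a pseudocount of 8 the WT series ratio turned positive, to 0.82 for miR-35, 0.40 for miR-36 and 1.22 for miR-40, and was called higher for miR-35 (limma adjusted p = 0.00506) and miR-40 (limma adjusted p = 9.43e-05).

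Leaving out each library gave members called of 0 to 6 for the strain difference in the step, 1 to 6 for the aligned window of WT 37 to 39 h, 7 to 12 for the WT step, 0 to 1 for the mutant step, 1 to 5 for the WT drop and 0 to 6 for the last WT step. For the ratio it gave 3 to 5 at WT 34 to 36 h, 1 to 3 at 37 to 39 h, 1 to 5 for the WT drop, 0 to 4 for the mutant drop and 0 to 1 over the WT series. Uncalled estimates changed sign in places. Their ranges were -0.55 to 0.03 for miR-36-5p in the difference of steps and -0.20 to 0.26, -0.11 to 0.39 and -0.18 to 0.39 (-0.15 without mutant 36 h) for miR-36-5p in the first 3 aligned windows. They were -0.25 to 0.68, -0.12 to 1.01 and -0.05 to 0.68 for miR-40-5p at WT 28 to 30, 31 to 33 and 37 to 39 h. They were -0.04 to 1.22 and -0.17 to 0.50 for miR-41-5p at 28 to 30 and 31 to 33 h, and -0.26 to 0.53 (-0.21 without WT 37 h) for miR-35-5p at 37 to 39 h. Over the mutant series they were -0.30 to 0.25 for miR-35-3p, -0.34 to 0.23 for miR-39-3p and -0.16 to 0.40 for miR-40-3p. For the WT drop they were -0.44 to 0.13 for miR-35-5p (0.11 without WT 31 h and 0.09 without WT 32 h), -0.16 to 1.01 for miR-37-5p, -0.65 to 0.78 for miR-39-5p, -0.22 to 1.46 for miR-40-5p and -0.36 to 0.71 for miR-41-5p, and over the WT series -0.20 to 0.04 for the miR-40 ratio.

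Onset hours moved with the threshold, to 34 to 36 h for WT passengers and 37 to 39 h for WT guides at 0.5 log2, and to 37 to 38 h and 39 to 42 h at 2 log2. Mutant passengers moved to 35 to 39 h and 39 to 41 h, and mutant guides to 41 to 42 h (5 of 6) and to no onset. Low counts limit miR-40-5p and miR-35-5p in larvae, and miR-38-5p and miR-41-3p could not be tested.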
